A study of Mus musculus with 10 samples.

Results

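MicroRNA genes were examined in 6 lists of regions bound by SMAD2/3 or by HEB in mouse cells. Members were the rows whose gene symbol begins with Mir and a number, or with Mirlet7, and a region listed for several of them was counted once. They came to 63 genes, of 10730 genes with a listed region, and to 132 regions, of 78263. Mir715 was left out, because the input at its region on chromosome 17 reached heights of 164 to 414, against 9.04 or less at any member region. Of the 63 symbols, 57 matched a symbol and 4 a single synonym in RefSeq, and these 61 genes all had the biotype miRNA. Mir193 and Mir685 had no single match.

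The cells were CGR8, an established mouse embryonic stem cell (ESC) line cultured feeder-free with serum and LIF, and endoderm made from it. The ChIP groups were Endoderm SMAD2/3 and Endoderm HEB (100 ng/ml Activin A for the last 48 hours, chromatin at day 4), and Endoderm+SB HEB (differentiated with SB431542, 10 µM for the last 48 hours). ESC+SB HEB (SB431542, 10 µM for 24 hours), ESC SMAD2/3 and ESC HEB came from undifferentiated cells. Whether Activin A was present in Endoderm+SB cells is not settled by the labels' wording. They are called endoderm below after their label, and whether they reached the state of the Endoderm cells was not tested. SB431542 blocks the receptor kinases through which TGF-beta, activin and Nodal activate SMAD2 and SMAD3, and HEB is the E protein encoded by Tcf12. Each group had 1 ChIP library, so no test across samples was possible, and every difference below is between libraries. The labelled cell types could not be checked against RNA markers, since binding regions do not measure RNA.

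A microRNA is cut from a hairpin within a longer primary transcript, whose promoter can lie at a distance from the hairpin. The mature strand guides silencing of messenger RNAs through its seed, the bases from 2 to 8 at its 5′ end, so microRNAs of one seed share many targets. In mouse ESCs the miR-290 cluster is the most abundant and supports rapid cycling and self-renewal, and the miR-302 cluster, which carries related seeds, becomes prominent as cells leave the ground state. In human ESCs miR-302 is known to target LEFTY transcripts, which encode Nodal inhibitors. Genes were assigned to regions by the authors, at distances of up to 1 kb, so for a microRNA the assignment refers to the annotated hairpin and not to a distant promoter.

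The mature sequences of the members on which the results turn are given below to show which of them share a seed. They are from RefSeq (build GRCm38.p6), 5′ to 3′, with the seed in capitals. A mature sequence was used for 54 of the 63 genes, which is not a count of those that RefSeq holds. Mir145 was among the genes without one.
miR-302b-3p: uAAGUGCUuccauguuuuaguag
miR-302d-3p: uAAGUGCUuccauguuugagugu
miR-302c-3p: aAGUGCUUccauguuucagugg
miR-291a-3p: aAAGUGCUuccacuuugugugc
miR-290a-3p: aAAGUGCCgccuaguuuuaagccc
miR-367-3p: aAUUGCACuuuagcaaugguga
miR-92b-3p: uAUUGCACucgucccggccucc
miR-181c-5p: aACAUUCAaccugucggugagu
miR-181d-5p: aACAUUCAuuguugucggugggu
miR-191-5p: cAACGGAAucccaaaagcagcug
miR-425-5p: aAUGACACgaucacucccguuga
miR-148b-3p: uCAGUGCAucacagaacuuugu
miR-152-3p: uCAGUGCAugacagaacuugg
miR-200b-3p: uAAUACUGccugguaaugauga
miR-200c-3p: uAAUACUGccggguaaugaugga
miR-200a-3p: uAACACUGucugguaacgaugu
miR-141-3p: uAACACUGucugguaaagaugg
miR-10a-5p: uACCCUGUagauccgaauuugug
miR-10b-5p: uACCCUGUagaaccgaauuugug
miR-196a-5p: uAGGUAGUuucauguuguuggg
miR-196b-5p: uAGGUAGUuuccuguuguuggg

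The seed AAGUGCU was shared by miR-302b-3p, miR-302d-3p and miR-291a-3p, which come from separate clusters on chromosomes 3 and 7. For Mir302a and Mir292 only the 5p sequence was available, so their 3p seeds were not compared. The seed AUUGCAC was shared by miR-367-3p and miR-92b-3p. The pairs miR-200b with miR-200c and miR-200a with miR-141 each had a seed in common across chromosomes 4 and 6, and miR-148b with miR-152, miR-10a with miR-10b and miR-196a with miR-196b likewise across chromosomes.

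Listed microRNA genes numbered 20 for Endoderm SMAD2/3, 9 for ESC SMAD2/3, 20 for Endoderm+SB HEB, 28 for Endoderm HEB, 42 for ESC+SB HEB and 33 for ESC HEB. As shares of the 63 genes these were 31.7%, 14.3%, 31.7%, 44.4%, 66.7% and 52.4%. Among all 10730 genes with a region in any list the shares were 48.9%, 15.6%, 48.8%, 53%, 63.6% and 51.3%, in the same order. With 63 genes and 1 library per group, these differences were not tested, and the counts changed with list length (at 4111 regions per list, Endoderm SMAD2/3 held 3 microRNA genes and ESC SMAD2/3 held 9). HEB was listed for 62 of the 63 genes in at least 1 list, and SMAD2/3 for 25. A gene became a member through a region in any of the 6 lists, of which 4 were HEB. A high count for HEB was thus partly set in advance. The exception for HEB was Mirlet7i. A single list held 17 of the genes, and all 6 lists held Mir191, Mir688 and Mir7b. Shares of all 10730 genes for these counts, and for any HEB or any SMAD2/3, were not computed.

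The level used is the deposited ChIP height of a region, whose scaling the sources used here do not give. The median height of microRNA regions was 30.6 for Endoderm SMAD2/3 (all regions 34.4), 39.3 for ESC SMAD2/3 (all 34.4) and 35.8 for Endoderm+SB HEB (all 34.5). It was 38.6 for Endoderm HEB (all 39.2), 38.9 for ESC+SB HEB (all 40.0) and 39.3 for ESC HEB (all 37.6). Regions between the quartiles of their list numbered 12 of 16 for Endoderm SMAD2/3, 1 of 8 for ESC SMAD2/3, 10 of 18 for Endoderm+SB HEB, 16 of 24 for Endoderm HEB, 18 of 37 for ESC+SB HEB and 18 of 29 for ESC HEB. ChIP tags per microRNA region ran from 62 (ESC SMAD2/3) to 5749 (ESC HEB). The lowest height that a list could hold was 28.0 for ESC+SB HEB and 25.0 for the other 5.

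**Figure D1:**
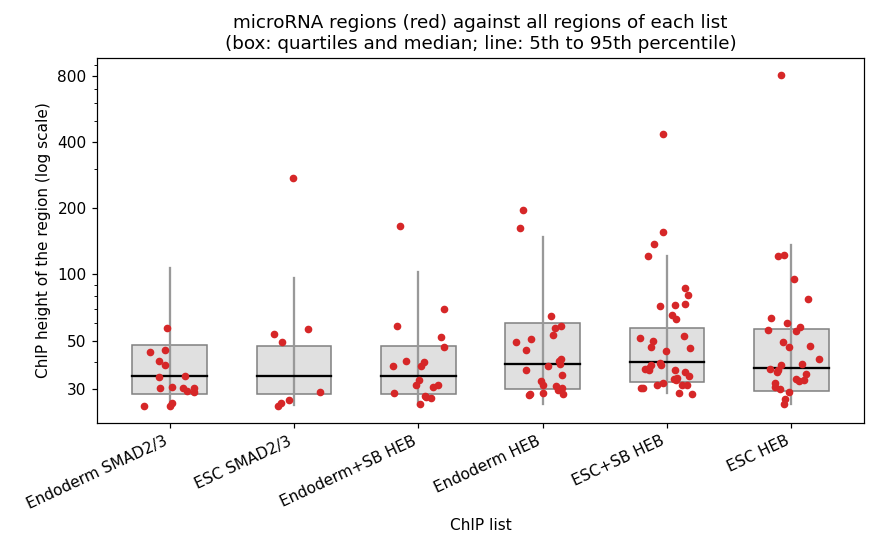
ChIP height (log scale) of each microRNA region (red points) beside all regions of the same list (box, quartiles with the median line; vertical line, 5th to 95th percentile), for the 6 lists. Of the 8 points of ESC SMAD2/3, 1 lies inside the box and 4 above it, and the highest point of all lists is the Mir191/Mir425 region at 810.1 in ESC HEB.

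**Figure D2:**
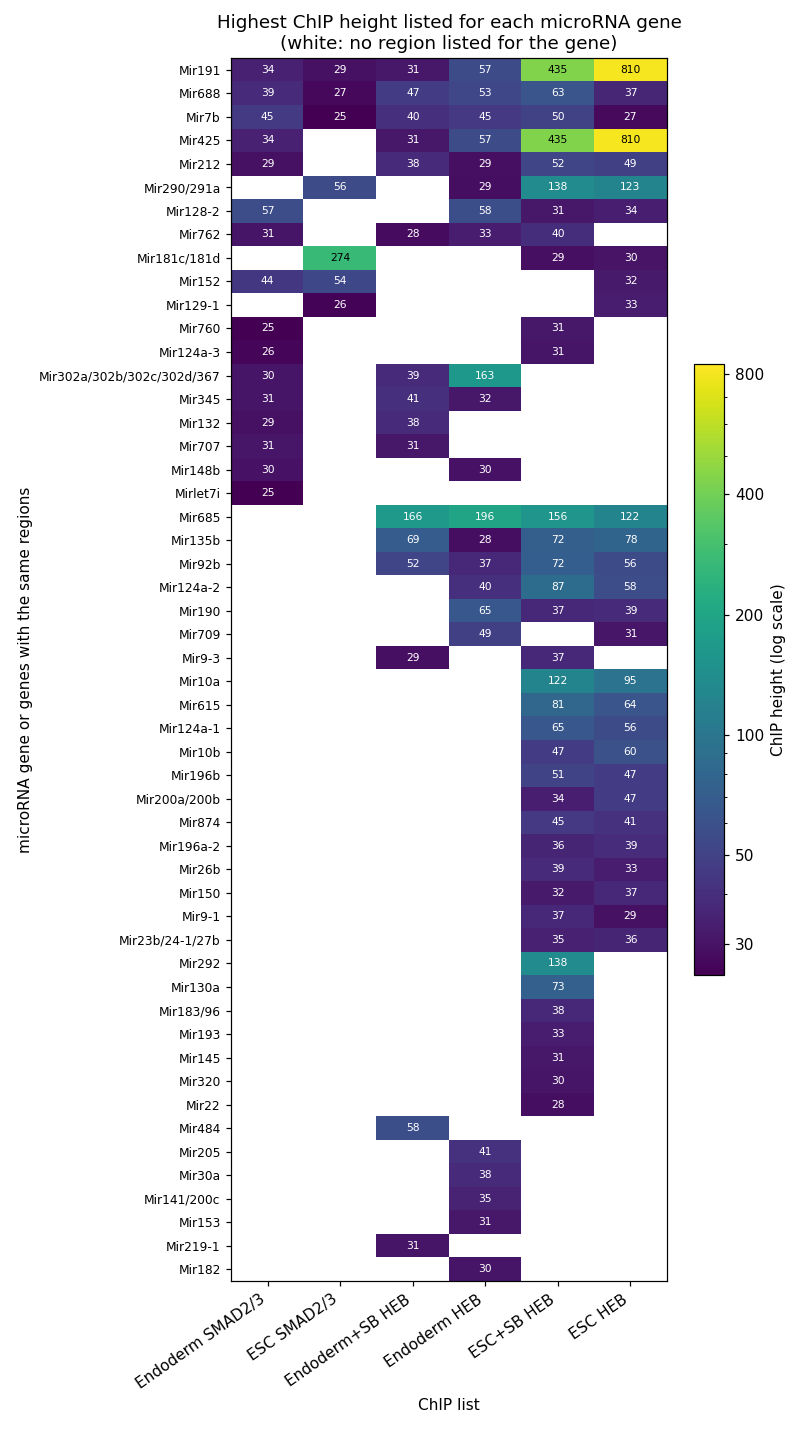
Highest ChIP height (colour, log scale, and printed number) listed for each microRNA gene in each of the 6 lists, with genes of identical regions on 1 row and white where no region was listed for the gene. Mir191, Mir688 and Mir7b have a value in every list, and the Hox cluster microRNAs (Mir10a, Mir10b, Mir196a-2, Mir196b and Mir615) have values in the ESC HEB lists alone.

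The miR-302 cluster, whose 5 genes (Mir302a to Mir302d and Mir367) were listed together, had its regions in the Endoderm lists and none in the ESC lists. The HEB region of endoderm lay inside Larp7 at mm9 chromosome 3, 127247167 to 127248437, over the Mir302a, Mir302b and Mir302c hairpins and 105 and 214 bp from those of Mir302d and Mir367. Its height was 163, from 881 ChIP and 46 input tags, above 95.9% of the Endoderm HEB list. The Endoderm SMAD2/3 region (127247561 to 127248181) had a height of 30.5, from 181 ChIP and 19 input tags, above 34.6% of its list. Both summits were 3 bp apart. With SB431542 the HEB height was 38.6 (156 ChIP and 13 input tags), against 163 without it, a ratio of 0.24. Of the 4818 Endoderm+SB HEB regions that overlapped an Endoderm HEB region, 18.1% were lower by 2-fold or more. Among these 3 lists the cluster had 1 high value, that of HEB in endoderm without the inhibitor.

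The miR-290 cluster showed the other order of states. Its ESC SMAD2/3 region lay 661 bp from Mir290, 954 bp from Mir291a and 819 bp from LOC100303645. HEB height there was 28.6 in Endoderm HEB (104 ChIP and 12 input tags), against 123 in ESC HEB (460 and 12 tags), a ratio of 0.23. In ESCs with SB431542 it was 138, against 123 without. The ESC HEB region (chromosome 7, 3217471 to 3217985) stood above 94.0% of its list. SMAD2/3 was listed in ESCs at a height of 56.3 (3217502 to 3217966, 245 ChIP and 12 input tags, above 82.6% of the list) and not in endoderm. The ESC SMAD2/3 and ESC HEB summits fell on the same base. The miR-290 site was thus listed for both factors in ESCs, with its HEB heights high in both ESC lists and low in endoderm. Mir292 was listed in ESC+SB HEB alone, at 910 bp from a region of 822 bp that overlapped the ESC HEB region of 514 bp. Of 9 genes of the cluster in RefSeq, 3 were listed.

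Mir181c and Mir181d, which encode members of the miR-181 family known from blood cell development, had the highest SMAD2/3 region of any microRNA gene. It lay at chromosome 8, 86703430 to 86705245, 570 bp from Mir181c and 744 bp from Mir181d, with no other gene listed. Height there was 274 in ESC SMAD2/3 (1435 ChIP and 77 input tags), above 99.4% of the list. In endoderm a SMAD2/3 region of height 154 (86704402 to 86705162, 634 ChIP and 32 input tags) had its summit 3 bp away. It was not listed for either gene, so counts by gene give these microRNAs as ESC alone although SMAD2/3 regions overlapped there in both states. HEB regions, also not listed for these genes, overlapped this site with heights of 56.1 in ESC+SB HEB and 63.3 in ESC HEB, and no HEB region was listed there in endoderm with or without the inhibitor. The SMAD2/3 height was 4.32 times the HEB height in ESCs, and 2.73% of 3448 overlapping ESC regions reached a ratio of 2 or more. It was the 1 of 8 ESC microRNA pairs to do so, and 2 of the 8 (miR-290 and Mir191) were lower by 2-fold or more, as were 38.2% of all pairs. A second site over the hairpins had heights of 49.4 in ESC SMAD2/3, 28.8 in ESC+SB HEB and 30.05 in ESC HEB, and was not listed in the Endoderm lists.

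Mir191 and Mir425, a pair of widely expressed microRNAs from a shared transcript, had the highest HEB region. Its height was 810.1 in ESC HEB (chromosome 9, 108469119 to 108471204, 5749 ChIP and 107 input tags), above 99.9% of the list, and it covered both hairpins and the 5′ end of Ndufaf3. With SB431542 it was 435 in ESCs (3017 and 140 tags), a ratio of 0.54, below the 5th percentile of 0.58 over 12773 shared regions. The ratio did not reach a 2-fold difference, and 2.62% of the shared regions were lower by 2-fold or more. HEB height was 31.3 in Endoderm+SB HEB and 56.8 in Endoderm HEB, a ratio of 0.55. Endoderm HEB was thus 0.07 of ESC HEB, where 14.6% of 5518 shared regions were lower by 2-fold or more. SMAD2/3 heights were 34.5 in endoderm and 29.1 in ESCs, with summits 292 and 470 bp from those of HEB. The ESC SMAD2/3 region was listed for Mir191 and not for Mir425. At this locus both ESC HEB values were high, while SMAD2/3 stood above 50.1% of the list in endoderm and 28.7% in ESCs.

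**Figure D3:**
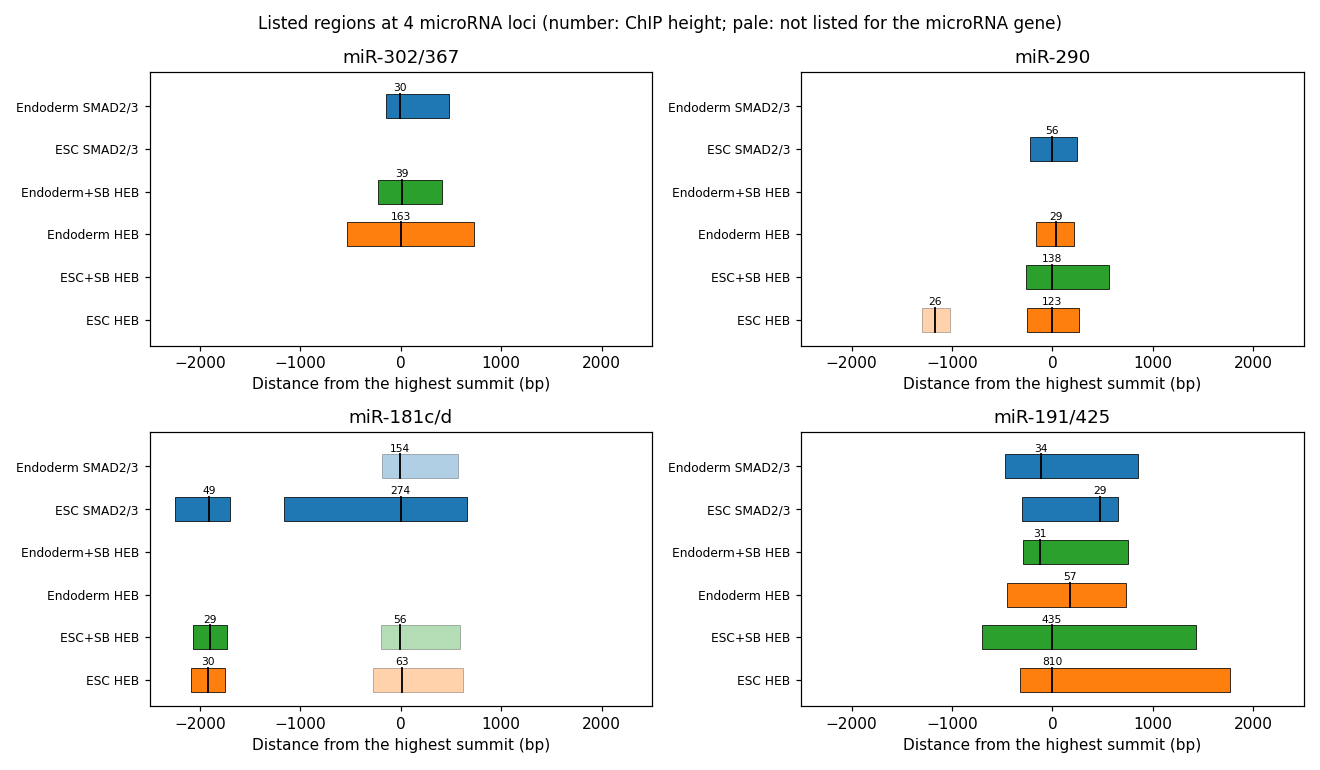
Regions of the 6 lists at 4 microRNA loci, drawn to scale by distance in bp from the highest summit of the locus (blue, SMAD2/3; orange, HEB without SB431542; green, HEB with it; black tick, summit; number, ChIP height; pale, not listed for the microRNA gene). The miR-302 cluster regions are in the Endoderm lists alone, those of miR-290 are highest in the ESC HEB lists (138 and 123), and the SMAD2/3 region of miR-181c/d is present at 154 in endoderm and 274 in ESCs.

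Mir685 was listed for a HEB region over the 5′ end of Parp2, which encodes a DNA repair enzyme, and over Rpph1, the RNA component of RNase P. Its heights were 166 in Endoderm+SB HEB, 196 in Endoderm HEB, 156 in ESC+SB HEB and 122 in ESC HEB, and no SMAD2/3 region was listed. The region was high in all 4 HEB lists, above at least 93.9% of each.

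The RefSeq promoter windows of Ndufaf3 and Parp2 were chosen after their values were seen. Their 5′ ends lay in the highest HEB microRNA regions that covered another gene's 5′ end (810.1 in ESC HEB and 196 in Endoderm HEB). HEB regions of all 4 HEB lists covered both 5′ ends, and also that of Atp5g2, whose window is not shown. Each covers 300 bases, and capitals mark the E-box CANNTG, the general motif of E proteins, which reads the same on both strands. Coordinates are GRCm38.p6, not the mm9 of the regions.
Ndufaf3, chr9:108567387-108567686, minus strand: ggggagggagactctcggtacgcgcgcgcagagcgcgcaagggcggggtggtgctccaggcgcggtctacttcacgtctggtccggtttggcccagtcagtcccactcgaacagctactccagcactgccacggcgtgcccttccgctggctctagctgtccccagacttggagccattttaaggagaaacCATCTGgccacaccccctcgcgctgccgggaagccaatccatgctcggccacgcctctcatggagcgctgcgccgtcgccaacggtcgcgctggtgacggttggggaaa
Parp2, chr14:50807666-50807965, plus strand: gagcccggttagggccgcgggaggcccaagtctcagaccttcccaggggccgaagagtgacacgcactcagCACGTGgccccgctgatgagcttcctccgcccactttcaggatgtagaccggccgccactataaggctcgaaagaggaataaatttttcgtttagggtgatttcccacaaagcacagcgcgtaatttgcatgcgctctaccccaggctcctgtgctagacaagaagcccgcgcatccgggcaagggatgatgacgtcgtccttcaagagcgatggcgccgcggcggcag

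Each window held 1 CANNTG match, CATCTG in Ndufaf3 and CACGTG in Parp2. Of all 32851 promoter windows, 72.3% held the motif, so a match in these windows is common.

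The first comparison asked where SMAD2/3 lay on HEB at microRNA genes. In endoderm 10 of 16 SMAD2/3 microRNA regions overlapped an Endoderm HEB region (62.5%, exact Clopper-Pearson 95% CI 35.4 to 84.8, counting error only), and 60.5% of all Endoderm SMAD2/3 regions did. In ESCs all 8 did (100%, CI 63.1 to 100), and the share over all ESC SMAD2/3 regions was 83.9%. From the side of HEB, 11 of 24 microRNA regions overlapped SMAD2/3 in endoderm (45.8%, CI 25.6 to 67.2, all regions 35.3%) and 7 of 29 in ESCs (24.1%, CI 10.3 to 43.5, all regions 19.8%). Each background share lay inside the interval of the microRNA regions, so no difference in co-occupancy between microRNA regions and the lists as a whole was detectable with these numbers. The shares depended on list length: with 4111 regions in each list, 0 of 4 Endoderm SMAD2/3 microRNA regions overlapped Endoderm HEB, and 3 of 8 ESC SMAD2/3 microRNA regions overlapped ESC HEB (37.5%).

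The ESC SMAD2/3 regions with HEB belonged to Mir129-1, Mir152, Mir181c, Mir181d, Mir191, Mir290, Mir291a, Mir688 and Mir7b. Median distance between the SMAD2/3 and HEB summits was 21 bp over 8 pairs in ESCs and 14 bp over 10 pairs in endoderm. The SMAD2/3 height was 0.19 to 1.13 times the HEB height in the endoderm pairs (median 0.90, all pairs 0.83). There 0 of the 10 were higher by 2-fold or more (6.12% of all pairs) and 1, the miR-302 cluster, was lower (25.1%). Mir129-1, a brain-enriched microRNA, had heights of 26.0 (SMAD2/3) and 33.1 (HEB) in ESCs alone. Mir7b, of the miR-7 family of neurons and endocrine cells, had SMAD2/3 heights of 45.3 in endoderm and 25.2 in ESCs at a site 656 to 677 bp away. Its HEB heights were 40.0 in Endoderm+SB HEB, 45.2 in Endoderm HEB, 49.8 in ESC+SB HEB and 27.2 in ESC HEB, so both factors had their lowest value in ESCs without the inhibitor. Mir688 had a SMAD2/3 region 456 bp away, over the 5′ end of Atp5g2, a gene for a mitochondrial ATP synthase subunit, with heights of 34.0 in endoderm and 26.9 in ESCs. Input height there was 5.31 in endoderm and 6.49 in ESCs, and the part of input in the result was not tested. A second SMAD2/3 region, over the Mir688 hairpin, was listed in endoderm alone at 38.8. The ESC SMAD2/3 regions of Mir129-1, Mir7b and Mir688 were low, above 8.42%, 1.8% and 15.2% of the list.

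Endoderm SMAD2/3 regions with HEB were those of the miR-302 cluster, Mir128-2, Mir148b, Mir191, Mir425, Mir345, Mir688, Mir762 and Mir7b. Mir128-2, a brain-enriched microRNA inside Arpp21, had 2 such sites in endoderm. At the higher, 698 bp away, heights were 57.3 (SMAD2/3, the highest region listed for a microRNA in Endoderm SMAD2/3) and 50.7 (HEB). At the site over the hairpin they were 40.5 (SMAD2/3) and 58.5 (HEB), and HEB there was 31.4 in ESC+SB HEB and 33.5 in ESC HEB without SMAD2/3. Mir128-2 was therefore listed for HEB in both states and for SMAD2/3 in endoderm alone. Mir148b (inside Copz1) had 29.6 for SMAD2/3 and 29.7 for HEB in endoderm. Mir345, at the 5′ end of Slc25a29, had 30.5 for SMAD2/3 and 31.6 for HEB in endoderm, and HEB was 40.5 with the inhibitor. Mir762, at the 5′ end of Bcl7c, had 30.5 for SMAD2/3 in endoderm. That region overlapped an Endoderm HEB region of 32.8, which lay 285 bp from the Bcl7c 5′ end, and another of 28.6 over this end. Mir148b, Mir345 and Mir762 thus had low regions of both factors.

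SMAD2/3 without an overlapping HEB region in endoderm was found at 6 regions, with heights of 25.2 to 44.3 (median 27.7), against 29.6 to 57.3 (median 34.2) at the 10 with HEB. Their genes were Mir124a-3, Mir132 with Mir212, Mir152, Mir707, Mir760 and Mirlet7i. Mir152, which shares its seed with miR-148b and lies in Copz2, had SMAD2/3 heights of 44.3 in endoderm and 53.9 in ESCs. HEB at Mir152 was 32.1 in ESC HEB and was listed in no other HEB list. Mirlet7i, of the let-7 family that accumulates on differentiation, had SMAD2/3 over its hairpin at 25.3 (230 ChIP and 24 input tags) and no HEB. Mir132 and Mir212, a neuronal pair induced by CREB, had SMAD2/3 at 29.3 over the hairpins, where HEB was listed with the inhibitor alone (38.4). Mir707 likewise had SMAD2/3 at 30.7 and HEB at 31.5 in Endoderm+SB HEB. Mir760 (25.2) and Mir124a-3 (26.1) completed this set, whose regions were low apart from Mir152.

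SMAD2/3 was next compared between the states. By gene, 4 microRNAs were listed in both (Mir152, Mir191, Mir688 and Mir7b), 16 in endoderm alone and 5 in ESCs alone (Mir129-1, Mir181c, Mir181d, Mir290 and Mir291a), of 63. Mir425, counted in endoderm alone, had an overlapping ESC SMAD2/3 region of 29.1 not listed for it. Mir181c and Mir181d, counted in ESCs alone, had such an Endoderm SMAD2/3 region of 154. Of all 10730 listed genes, 11.1% were in both, 37.7% in endoderm alone and 4.47% in ESCs alone. By region, 4 of 16 Endoderm SMAD2/3 microRNA regions overlapped ESC SMAD2/3 (25%, CI 7.27 to 52.4, all regions 14.2%). Of the 8 ESC SMAD2/3 microRNA regions 5 overlapped Endoderm SMAD2/3 (62.5%, CI 24.5 to 91.5, all regions 38.7%). Heights at the 5 shared regions were 0.56 to 1.796 times as high in endoderm as in ESCs (median 1.18, all 1567 pairs 1.28), and 0 differed by 2-fold or more, where 23% of all pairs were higher and 5.87% lower by that much. The Endoderm SMAD2/3 list holds 11033 regions and the ESC list 4111, and the larger count in endoderm did not hold with lists of equal length, which gave 3 microRNA genes in endoderm and 9 in ESCs.

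HEB was then compared between the states without inhibitor. Of 24 Endoderm HEB microRNA regions 12 overlapped ESC HEB (50%, CI 29.12 to 70.9, all regions 29.1%, a share just below the interval). Of 29 ESC HEB microRNA regions 12 overlapped Endoderm HEB (41.4%, CI 23.5 to 61.1, all regions 32.1%). The sets are unlike, since the shares over all regions were not limited to regions listed for a gene. Of the 28 microRNA genes with Endoderm HEB, 14 also had ESC HEB, as did 3458 of all 5682 genes with Endoderm HEB. By gene, 14 of the 63 had HEB in both, 14 in endoderm alone and 19 in ESCs alone, and of all 10730 listed genes 32.2% had it in both, 20.7% in endoderm alone and 19.1% in ESCs alone. In the 12 shared pairs endoderm height was 0.07 to 1.74 times the ESC height (median 0.88, all pairs 0.97), with 0 higher and 3 lower by 2-fold or more, where 11.4% of all pairs were higher and 14.6% lower by that much. The 3 were Mir191 with Mir425, Mir290 with Mir291a, and Mir135b. Mir709, in Rfx1, was counted for both states but its regions did not overlap (49.1 in endoderm and 30.9 in ESCs). Mir190, inside Tln2, had 64.7 in endoderm and 38.6 in ESCs.

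MicroRNAs of the Hox clusters, which silence Hox and other transcripts along the body axis, had HEB in ESCs and not in endoderm. Of 6 such genes 5 were listed in both ESC+SB HEB and ESC HEB, and 0 in any SMAD2/3 or Endoderm list, a combination held by 7.14% of all 10730 listed genes. It was not particular to Hox cluster members. Mir124a-1, Mir150, Mir200a, Mir200b, Mir23b, Mir24-1, Mir27b, Mir26b, Mir874 and Mir9-1 had the same combination. Mir10a, whose region covered the 5′ end of Hoxb4, had heights of 122 in ESC+SB HEB and 95.4 in ESC HEB, in a region of 2756 bp in ESC HEB. Mir615, whose region covered the 5′ end of Hoxc5, had 80.6 in ESC+SB HEB and 63.6 in ESC HEB over 2405 bp in ESC HEB. Mir10b had 47.0 in ESC+SB HEB and 60.2 in ESC HEB, and Mir196b (in Hoxa10) 51.4 in ESC+SB HEB and 46.7 in ESC HEB. Mir196a-2 (beside Hoxc10) had 36.1 in ESC+SB HEB and 39.3 in ESC HEB. These regions were 1700 bp (Mir196b) to 2756 bp wide in ESC HEB, against a median of 513 bp for that list, apart from a second Mir196b region of 950 bp (height 25.8).

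The miR-200 family, which maintains epithelial character by repressing Zeb1 and Zeb2, had HEB at a different cluster in each state. Mir200c and Mir141 on chromosome 6 had HEB in endoderm at a height of 34.9 (90 ChIP and 10 input tags, 376 bp from Mir200c) and in no ESC list. Mir200a and Mir200b on chromosome 4 had HEB at 33.8 in ESC+SB HEB and 47.1 in ESC HEB (120 ChIP and 10 input tags), and in no Endoderm list. Mir429, the fifth gene of the family, was not listed. All of these values come from low tag counts in 1 library per state. In the miR-183/96/182 cluster of sensory cells, Mir182 was listed at 30.3 in Endoderm HEB alone. Mir183 with Mir96 was listed at 37.7 in ESC+SB HEB alone, at a separate position. State and inhibitor both differ between these lists, and no gene of this cluster was listed in ESC HEB.

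Of all 1228 microRNA genes in RefSeq, many of which the authors' annotation may not hold, 61 were members (4.97%), and the counts of families are to be read beside that share and with no test. Of 15 neural microRNA genes on the list, 8 had a region. These included 3 genes of miR-124, which promotes neuronal identity, and 2 of miR-9. Mir124a-2 had HEB at 40.3 in endoderm, 87.0 in ESC+SB HEB and 57.6 in ESC HEB, and an overlapping Endoderm+SB HEB region of 53.7 was not listed for it. Mir124a-1 had HEB at 65.1 in ESC+SB HEB and 56.0 in ESC HEB and in no Endoderm list. Mir9-1 had 36.9 in ESC+SB HEB and 29.3 in ESC HEB, and Mir9-3 was listed at 28.8 in Endoderm+SB HEB and 37.2 in ESC+SB HEB. Mir9-3 was therefore listed in the lists with inhibitor alone, at low heights. Mir219-1, known from oligodendrocytes, was listed in Endoderm+SB HEB alone, at 30.7 and 28.0, beside Ring1.

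HEB in endoderm alone, without inhibitor, was also listed at Mir205 (41.3), an epithelial microRNA, Mir30a (38.2) and Mir153 (31.2). Mir205 was the sole listed gene of the 14 endoderm, liver and pancreas microRNA genes searched. Of 15 genes of the miR-17-92 cluster and its paralogues and 6 of the miR-34 and miR-449 family, whose miR-34 genes are controlled by p53, 0 were listed. Of 13 let-7 family genes 1 was listed, and of 19 mesoderm and blood genes 2, Mir145 and Mir150. Mir150, known from lymphocytes, had 32.2 in ESC+SB HEB and 37.2 in ESC HEB. Mir23b, Mir27b and Mir24-1, a cluster known to target Smads in mouse fetal liver cells, had a HEB region of 34.6 in ESC+SB HEB and 36.1 in ESC HEB and no SMAD2/3. Apart from these, Mir26b and Mir874 had HEB in the ESC lists alone, at 38.7 and 44.8 in ESC+SB HEB, against 32.9 and 41.4 in ESC HEB.

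The last comparison set HEB with SB431542 against HEB without it. In the Endoderm lists the inhibitor was present during differentiation, so inhibitor and cell state cannot be told apart there. In endoderm 11 of 24 Endoderm HEB microRNA regions overlapped an Endoderm+SB HEB region (45.8%, CI 25.6 to 67.2, all regions 25.3%). From the other side, 11 of 18 Endoderm+SB HEB microRNA regions overlapped Endoderm HEB (61.1%, CI 35.7 to 82.7, all regions 47.5%). In ESCs 26 of 29 ESC HEB microRNA regions overlapped ESC+SB HEB (89.7%, CI 72.6 to 97.8, all regions 74.8%), and 27 of 37 ESC+SB HEB microRNA regions overlapped ESC HEB (73.0%, CI 55.9 to 86.2, all regions 76.2%). The share with a counterpart was 45.8% in endoderm and 89.7% in ESCs for microRNA regions, and 25.3% in endoderm and 74.8% in ESCs for all regions of the same lists. The Endoderm+SB HEB list holds 10147 regions and the Endoderm HEB list 18981, while the ESC lists are of similar length (16769 with and 17222 without SB431542). With 4111 regions in each list the order turned, to 100% (2 of 2) in endoderm and 85.7% (6 of 7) in ESCs. Of these 4 intervals, the one for Endoderm HEB began just above the share over all regions and the other 3 held it. The shares over all regions were not limited to regions listed for a gene, whereas every microRNA region was so listed.

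Over the 11 shared pairs of endoderm, height with SB431542 was 0.24 to 2.45 times that without (median 0.95, all 4818 pairs 0.92). The lowest was the miR-302 cluster and the highest Mir135b, and 5.71% of all pairs were higher by 2-fold or more. Mir135b, inside Lemd1, had heights of 69.4 in Endoderm+SB HEB, 28.3 in Endoderm HEB, 72.3 in ESC+SB HEB and 77.6 in ESC HEB. Endoderm HEB was thus the low value of the 4 for this gene. Mir92b, which shares its seed with miR-367 and has its region in Thbs3, had 51.9 in Endoderm+SB HEB, 36.8 in Endoderm HEB, 72.0 in ESC+SB HEB and 55.6 in ESC HEB. Mir212 had, at a site present in all 4 HEB lists, 27.4 in Endoderm+SB HEB, 28.8 in Endoderm HEB, 52.3 in ESC+SB HEB and 49.1 in ESC HEB, higher in both ESC lists than in both Endoderm lists.

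Over the 28 shared pairs of ESCs the ratio was 0.47 to 1.83 (median 1.11, all 12773 pairs 1.07), with 0 higher by 2-fold or more (0.36% of all pairs) and 1 lower. The lower one was a second ESC+SB HEB region of height 28.5, not listed for the gene, that overlapped the Mir10b region of ESC HEB. The ESC+SB regions without an ESC HEB counterpart, 10 in number, had heights of 28.5 to 39.7, against 28.8 to 435 for the 27 with one. Their genes were Mir124a-3 (30.6), Mir145 (31.3), Mir183 with Mir96, Mir193 (33.1), Mir22 (28.5), Mir320 (30.3), Mir760 (31.4), Mir762 (39.7) and Mir9-3. Mir145, which represses pluripotency factors in human ESCs, rested on 74 ChIP and 27 input tags. Mir130a was listed with SB431542 at 73.4, and its region overlapped others not listed for it in Endoderm+SB HEB (51.5), Endoderm HEB (38.1) and ESC HEB (56.2). Of the 12 genes listed with the inhibitor alone in ESCs, Mir130a and Mir292 thus had an overlapping ESC HEB region, and the other genes had heights of 39.7 or less. The share of all listed genes with HEB in ESC+SB HEB and not in ESC HEB was not computed.

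HEB regions of ESCs without a counterpart with SB431542 were those of Mir129-1 (33.1), Mir152 (32.1) and Mir709 (30.9). These heights are near the lowest height of 28.0 that the ESC+SB HEB list holds, and the part of this limit was not tested. In endoderm 13 HEB regions had no counterpart with SB431542, with heights of 28.6 to 64.7, the highest being Mir190. The 7 Endoderm+SB HEB regions without an Endoderm HEB counterpart had heights of 25.7 to 58.3. The highest of these covered Mir484 (chromosome 16, 14159178 to 14159886), at the 5′ end of 4921513D23Rik, and the others belonged to Mir132 with Mir212, Mir219-1, Mir707 and Mir9-3.

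**Figure D4:**
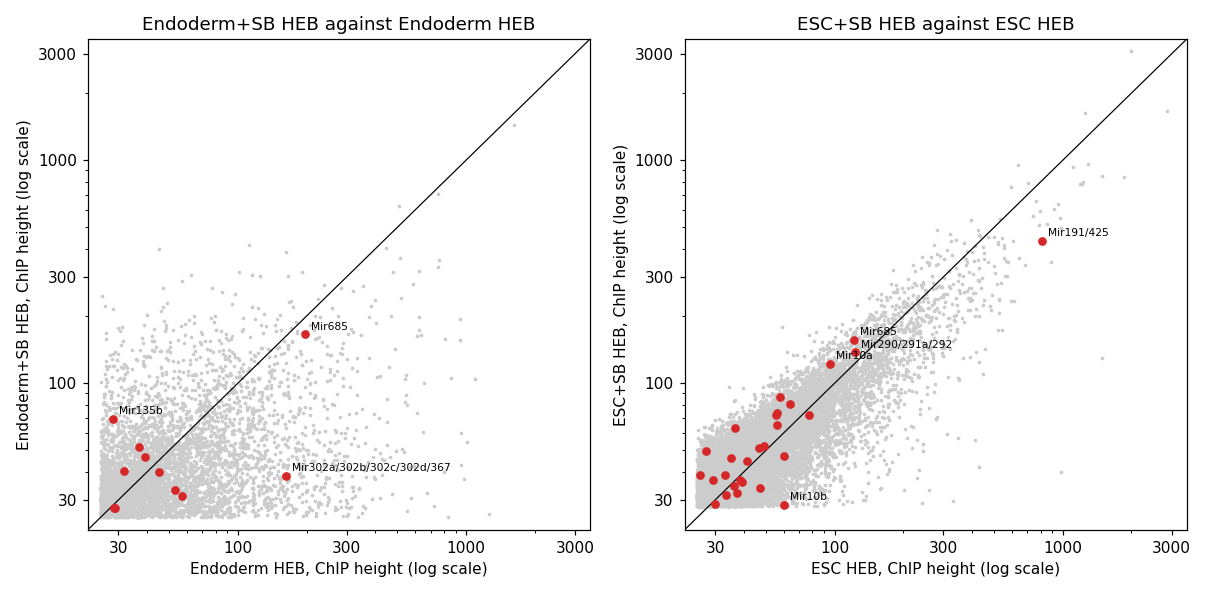
HEB ChIP height with SB431542 (vertical, log scale) against height without it (horizontal, log scale) for overlapping regions in endoderm (left) and ESCs (right), with all pairs in grey, pairs at microRNA genes in red and the line of equality. The miR-302 cluster lies at 38.6 against 163 and Mir135b at 69.4 against 28.3 in endoderm, and the ESC points run along the line, with Mir191/Mir425 at 435 against 810.1.

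By position, regions overlapped a microRNA hairpin (distance 0) in 8 of 16 Endoderm SMAD2/3, 1 of 8 ESC SMAD2/3, 7 of 18 Endoderm+SB HEB, 7 of 24 Endoderm HEB, 19 of 37 ESC+SB HEB and 13 of 29 ESC HEB microRNA regions. Distance 0 means any overlap, so a region said to lie over a hairpin may cover only a part of it. Regions also listed for a gene other than a microRNA made up 68.8% of Endoderm SMAD2/3, 50% of ESC SMAD2/3, 77.8% of Endoderm+SB HEB, 70.8% of Endoderm HEB, 54.1% of ESC+SB HEB and 65.5% of ESC HEB microRNA regions. For such regions, binding at the microRNA and binding at the other gene cannot be told apart. Neither measure of position was computed over all regions of the lists, so differences between lists are not particular to microRNA regions on these values.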

How the data were processed

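ChIP-seq regions of 6 libraries were used. Per the submitters' processing notes, CASAVA 1.8.2 and build mm9 were used; aligner, peak caller and annotation: not given in the sources used here. Per the file headers, the deposited tag counts per region are whole numbers of ChIP and background tags. The deposited signal is the height of each region's ChIP and background peak, without stated scaling. The authors' ratio of tags or heights, deposited as enrichment, was not used for the values. The deposited score headed −log10 q-value was too large for that scale and not used. At Mir715 the input tags of the SMAD2/3 list equalled those of the HEB list without SB431542 (2240 in endoderm, 4150 in ESCs). The 4 inputs entered these results as background columns of the lists, and pooling is not stated.

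Regions were collapsed by their index and compared by overlap of at least 1 bp, with exact Clopper-Pearson 95% intervals that cover counting error only (Python 3.11.15, SciPy 1.17.1). Where several regions overlapped, the highest was taken. Shares over all regions used every region of a list, whether or not it was listed for a gene. With 1 library per group no p-value was computed. On simulated lists of 4000 and of 17000 regions the overlap step called 100% of regions right. Alternatives were lists of equal length, a height of 30 or more, an overlap of 50% of the shorter region, Mir715 included, and distance 0. Genes were named if they had SMAD2/3, had HEB in all 4 HEB lists, were among the 5 highest of a list or of a class (HEB in 1 state, or with or without SB431542, alone), or belonged to a searched family with a region; the rest are named to account for every member. Members and family lists were chosen with earlier results of these data known.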

Additional observations from a re-analysis of the deposited data

Results flagged for a closer look

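For 4 microRNA genes with a HEB region in all 4 HEB lists, the height of the gene's highest HEB region differed in opposite directions with SB431542 in the 2 states. The difference between the states was not tested, since each value is 1 library over another. Mir135b had a ratio of height with SB431542 to height without it of 2.45 in endoderm and 0.93 in ESCs. Mir685 had a ratio of 0.84 in endoderm and 1.28 in ESCs. Mir688 had a ratio of 0.88 in endoderm and 1.72 in ESCs between the highest regions, which in endoderm lay at different positions. Its overlapping regions gave 1.19 and 0.63 in endoderm, and 1.72 and 1.31 in ESCs, so its direction in endoderm depends on the site. Mir7b had a ratio of 0.88 in endoderm and 1.83 in ESCs. Median ratios over all overlapping regions were 0.92 in endoderm and 1.07 in ESCs. Compared site by site, 5 of the 8 microRNA sites present in all 4 HEB lists had opposite directions. These included Mir212, with a ratio of 0.95 in endoderm and 1.07 in ESCs, and 1 of the 2 Mir688 sites. Of 2214 Endoderm HEB regions that overlapped the other 3 HEB lists, 50.7% had opposite directions, so the count at microRNA sites is near that of all such regions.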

How the results depend on the processing

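No paired analysis was possible because each group had 1 library. With Mir715 included, or with overlap of 50% of the shorter region, no count moved by more than 1.5 times and no share left its interval. At a height of 30 or more, the ESC SMAD2/3 genes came to 5, against 9. Endoderm SMAD2/3 overlap with ESC SMAD2/3 was then 9.09% (1 of 11), and ESC HEB overlap with ESC SMAD2/3 11.5% (3 of 26), both inside the intervals of the shares in the report. With lists of equal length (4111 regions), listed genes came to 3 for Endoderm SMAD2/3, 9 for ESC SMAD2/3, 14 for Endoderm+SB HEB, 6 for Endoderm HEB, 14 for ESC+SB HEB and 9 for ESC HEB. The overlap shares there were 37.5% for ESC SMAD2/3 with ESC HEB, 0% for Endoderm SMAD2/3 with Endoderm HEB (of 4 regions) and 0% the other way round (of 2), 14.3% for ESC HEB with Endoderm HEB, 54.5% for ESC+SB HEB with ESC HEB, 100% for Endoderm HEB with Endoderm+SB HEB (of 2) and 22.2% for Endoderm+SB HEB with Endoderm HEB. Endoderm SMAD2/3 with ESC SMAD2/3 was 50% (2 of 4), and ESC HEB with ESC+SB HEB 85.7% (6 of 7). With regions at distance 0 alone, genes came to 9 (Endoderm SMAD2/3), 2 (ESC SMAD2/3), 8 (Endoderm+SB HEB), 9 (Endoderm HEB), 20 (ESC+SB HEB) and 15 (ESC HEB). Overlap of SMAD2/3 between states was then 0% of 8 regions from endoderm and 0% of 1 from ESCs, and of ESC HEB with ESC+SB HEB 100% of 13. These settings leave fewer regions by construction. Counts of microRNA genes therefore depend on list length and on the window, and the order of states should not be read from them. The smallest tag counts, 62 to 120 per region, limit the members of low height.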

Other observations

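Where a region also covered the 5′ end of another gene, the RefSeq promoter windows of 9 such genes were searched on both strands. Hoxc5, Polr3d, Rpph1 and Tbc1d17 also had a covered 5′ end but no matched window, and were not searched. The E-box CANNTG was in 7 of the 9 (72.3% of all windows), its forms CAGCTG in 2 (16.3%) and CAGGTG in 1 (20.2%), and the SMAD element CAGAC in 5 (49.6%). The SMAD element GTCTAGAC (0.21% of all windows) and the FOXH1 core TGTGNATT (3.60%) were in 0. CAGCTG and CAGGTG are contained in CANNTG, and GTCTAGAC does not contain CAGAC on either strand. A match describes the letters in the window, and nothing follows from its absence.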
